A study of Mus musculus with 2 samples.

Results

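The fibroblast growth factor (FGF) ligands of facial ectoderm and mesenchyme were followed at the level of the gene and of the transcript in embryonic facial prominence, the tissue of the embryo that grows into the face. The 10 genes, Fgf2, Fgf3, Fgf7, Fgf8, Fgf9, Fgf10, Fgf15, Fgf17, Fgf18 and Fgf20, were chosen by symbol out of 43346 annotated genes, and all of them were in the deposited files. The tissue came from healthy mouse embryos of strain B6NCrl, without a mutant allele or a treatment in the labels, at 11.5 days of development. The single group has 2 libraries of total RNA. Library 1 pooled 109 embryos and library 2 pooled 88, male and female together. Each began with 10 ng of RNA, size-selected above 200 nt, and held added spike-ins. The labels give both pools the same donor entry and no second condition, so nothing was tested between conditions and no p-value is given. Values are the mean ± SD over the 2 pools (n = 2), and the prominences of the face were not separated.

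FGF ligands are secreted proteins that bind receptor tyrosine kinases of the Fgfr family together with heparan sulfate, and the receptors signal largely through the MAP kinase pathway. In the developing face and its arches they pass between tissue layers: ectodermal ligands such as Fgf8 are known for keeping the neural crest-derived mesenchyme alive and patterning it, while mesenchymal ligands such as Fgf10 act on the epithelium through a splice form of Fgfr2. Which layer makes a ligand was taken here from textbook knowledge and was not measured, since both layers were in every pool. In such bulk tissue, fewer cells of a kind and less RNA per cell cannot be told apart.

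The libraries held 30849058 and 31600302 expected counts, of which 28627217 and 29281440 fell on genes, and the 10 ligands took 2117 and 2151 of them. A level is given in TPM, a transcript abundance corrected for transcript length and scaled to a fixed total per library. Spike-ins took 15.4% and 15.8% of all TPM. The spread between the pools beyond counting error, fitted over 16002 genes with edgeR, was 9.80% as a coefficient of variation. All 14 epithelial, all 12 mesenchymal and all 12 forebrain and eye markers were at 1 TPM or more in both libraries. So were all 8 olfactory and placode markers, all 8 neuronal markers and 2 of 2 second pharyngeal arch markers (Hoxa2 and Hoxb2). The same held for 7 of 8 skeletal muscle markers and 6 of 8 heart markers, beside 58.5% of protein-coding genes. Since most markers of every list reached this level, these counts cannot tell facial prominence from other tissue.

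Fgf8 was the ligand whose transcripts were most mixed, with 5 of its 6 annotated transcripts at nonzero counts. Its forms differ at the start of the coding sequence, where alternative splicing inserts or leaves out coding segments between the same upstream and downstream exons. The junctions are shown because the shares described further on turn on them. Each sequence is read 5′ to 3′ along the transcript on the minus strand of chromosome 19 (GRCm38, the same assembly as mm10), with the inserted segment in capitals and 24 flanking bases on each side in lower case. Fgf8-205 carries none of the segments. In Fgf8-206 the segment is 33 bases long (chr19:45741647-45741679), the stretch that in the usual nomenclature separates the Fgf8b form from Fgf8a. In Fgf8-201 the segment is an exon of 87 bases of its own (chr19:45741911-45741997), and the 33-base segment follows it. In Fgf8-202 it is an extension of 192 bases (chr19:45742324-45742515) that leads straight into the common downstream exon.
Fgf8-205: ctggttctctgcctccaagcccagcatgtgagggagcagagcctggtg
Fgf8-206: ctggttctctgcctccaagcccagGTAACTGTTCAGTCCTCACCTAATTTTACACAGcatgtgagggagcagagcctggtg
Fgf8-201: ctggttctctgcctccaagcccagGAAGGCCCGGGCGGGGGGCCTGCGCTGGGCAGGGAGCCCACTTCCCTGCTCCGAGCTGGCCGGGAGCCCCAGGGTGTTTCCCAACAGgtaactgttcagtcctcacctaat
Fgf8-202: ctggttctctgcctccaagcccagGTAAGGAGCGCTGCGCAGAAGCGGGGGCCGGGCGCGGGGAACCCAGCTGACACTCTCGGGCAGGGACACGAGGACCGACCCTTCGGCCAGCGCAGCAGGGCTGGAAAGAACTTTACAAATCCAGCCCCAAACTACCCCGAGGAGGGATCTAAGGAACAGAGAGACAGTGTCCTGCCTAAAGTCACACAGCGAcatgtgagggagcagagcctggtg

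Of the 10 ligands, 7 reached 1 TPM in both libraries: Fgf15, Fgf8, Fgf10, Fgf9, Fgf17, Fgf18 and Fgf7. Fgf3, Fgf2 and Fgf20 stayed under 1 TPM in both, but by the authors' posterior mean TPM Fgf2 was above it, at 1.43 and 1.40 TPM. For comparison, 32.0% of all genes and 58.5% of protein-coding genes reached that level. The median ligand stood at 3.84 TPM, beside 3.45 TPM for the median protein-coding gene, so the ligands as a group sat near the middle of the range. Fgf15 and Fgf8 together carried most of the ligand RNA, with 32.3% and 25.2% of the summed TPM of the 10 genes.

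Among the ligands known mainly from epithelia, Fgf15 stood highest. Fgf15, the mouse counterpart of human FGF19 and known from the neuroepithelium of the forebrain and retina as well as from pharyngeal endoderm, lies on chromosome 7 (144896531 to 144900953, plus strand). It was at 17.6 TPM in library 1 and 19.4 TPM in library 2 (18.5 ± 1.30, from 615 and 692 expected counts), which put it at percentile 71.2 of protein-coding genes. Fgf8, the ectodermal ligand of the nasal pits and of the first arch, lies on chromosome 19 (45736798 to 45742915, minus strand). It was at 15.5 TPM in library 1 and 13.3 TPM in library 2 (14.4 ± 1.57, from 290 and 259 counts). Fgf15 was above Fgf8 in both libraries, but in library 1 the 95% counting intervals of the 2 genes overlapped.

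Fgf9, a ligand of many embryonic epithelia that signals to mesenchyme, lies on chromosome 14 (58070547 to 58112720, plus strand) and was at 6.41 and 5.67 TPM (6.04 ± 0.523, from 279 and 241 counts). Fgf17, a close relative of Fgf8 that is known from overlapping domains of the embryo, lies on the same chromosome (70636203 to 70642268, minus strand) and was at 4.51 and 3.95 TPM (4.23 ± 0.396, from 147 and 131 counts). Fgf8 stood 3.40 ± 0.0524-fold above Fgf17. The ratio of the pair was 3.44 in library 1 and 3.37 in library 2.

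Fgf3 and Fgf20 were the low epithelial ligands. Fgf3, known for its part in inner ear induction and in tooth development, lies on chromosome 7 (144838083 to 144844436, plus strand) and was at 0.47 and 0.76 TPM (0.615 ± 0.205, from 21 and 22 counts). Its TPM differed 1.62-fold between the libraries while its counts did not, because the mean transcript length that the authors used was 2299 nt in library 1 and 1486 nt in library 2. Fgf20, of the same subfamily as Fgf9 and known from the tooth enamel knot and the inner ear, lies on chromosome 8 (40279166 to 40308331, minus strand). It was at 0.60 and 0.38 TPM (0.490 ± 0.156, from 17 and 11 counts), and Fgf9 stood 12.8 ± 3.0-fold above it.

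Of the ligands known mainly from mesenchyme, Fgf10 led. Fgf10, the ligand of the epithelial Fgfr2 form in limb, lung and face, lies on chromosome 13 (118669791 to 118792115, plus strand) and was at 7.40 and 8.01 TPM (7.71 ± 0.431, from 609 and 671 counts). Fgf18, a ligand of the Fgf8 subfamily known from skeletal precursors and palate, lies on chromosome 11 (33117430 to 33147400, minus strand) and was at 3.85 and 3.05 TPM (3.45 ± 0.566, from 78 and 62 counts). Fgf7, a mesenchymal ligand of the same epithelial receptor form as Fgf10, lies on chromosome 2 (126034658 to 126091185, plus strand) and was at 1.07 and 1.36 TPM (1.22 ± 0.205) from 55 counts in each library. Fgf10 thus stood 6.40 ± 0.726-fold above Fgf7 on the TPM scale.

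Fgf2, a ligand without a classical signal peptide that is known from both layers, lies on chromosome 3 (37348346 to 37410108, plus strand). It was at 0.50 and 0.51 TPM (0.505 ± 0.00707), from only 6 and 7 counts. The small SD is that of 2 nearly equal low values and is well inside the counting error of so few reads. The posterior mean TPM of Fgf2 was close to that of Fgf7 (1.26 and 1.47), so its level and place in the order depend on the estimate. The longest Fgf2 transcript in the deposited files has 1240 nt, against 5973 nt in the later GENCODE M21 annotation, and what this does to the level was not tested.

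**Figure D1:**
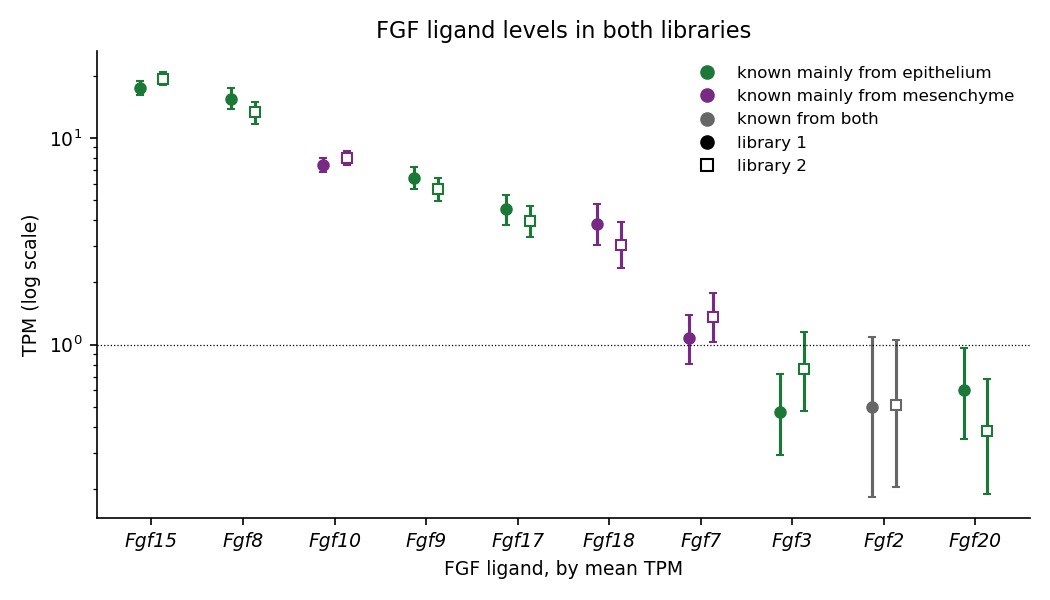
Level of each FGF ligand in TPM (log scale) in library 1 (filled circles) and library 2 (open squares), ordered by the mean, with bars for the 95% counting interval and a dotted line at 1 TPM. Colours give the tissue layer each ligand is mainly known from. The values run from 18.5 TPM for Fgf15 to 0.490 TPM for Fgf20, and the 3 lowest ligands overlap.

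In the order Fgf15, Fgf8, Fgf10, Fgf9, Fgf17, Fgf18, Fgf7 and Fgf3, each ligand lay above the next in both libraries without overlap of the library values. Fgf3, Fgf2 and Fgf20 overlapped and have no order. By counting intervals the order was less firm: those of Fgf17 and Fgf18 overlapped in both libraries (1.23 ± 0.0874-fold apart), those of Fgf10 and Fgf9 in library 1, and those of Fgf7 and Fgf3 in library 2.

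The 6 ligands known mainly from epithelium (Fgf3, Fgf8, Fgf9, Fgf15, Fgf17 and Fgf20) summed to 45.1 TPM in library 1 and 43.5 TPM in library 2 (44.3 ± 1.14). The 3 known mainly from mesenchyme (Fgf7, Fgf10 and Fgf18) summed to 12.3 and 12.4 TPM (12.4 ± 0.0707). The epithelial sum was therefore 3.66 times the mesenchymal sum in library 1 and 3.50 times in library 2 (3.58 ± 0.112). The ratio rests on a few genes and on where they are placed. Without Fgf15 it was 2.09, taking the medians of the classes in place of their sums it was 1.5, and with Fgf10 counted as epithelial it was 11.2. Of the epithelial ligands 4 of 6 reached 1 TPM in both libraries, and of the mesenchymal ligands 3 of 3.

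By protein subfamily, the Fgf8 group (Fgf8, Fgf17 and Fgf18) carried the most RNA of the groups with several of these ligands, 23.9 TPM in library 1 and 20.3 TPM in library 2 (22.1 ± 2.53). The Fgf7 group (Fgf3, Fgf7 and Fgf10) was at 8.94 and 10.1 TPM (9.54 ± 0.841), most of it from Fgf10. The Fgf9 group (Fgf9 and Fgf20) was at 7.01 and 6.05 TPM (6.53 ± 0.679), most of it from Fgf9.

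The transcripts of the 10 genes numbered 31, of which 21 had counts in at least 1 library. For 9 genes the same transcript took the largest share of the gene's TPM in both libraries. Fgf15 and Fgf17 are annotated with 1 transcript each, and Fgf10 and Fgf20 had counts on only 1 of theirs.

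For Fgf8 no transcript took more than 27.7% of the TPM. Fgf8-201 had 23.6% in library 1 and 27.3% in library 2, and Fgf8-206 had 22.8% and 27.7%, so the leading form differed between the libraries. The difference is within the uncertainty of dividing reads among the forms: Fgf8-201 was estimated at 76.3 and 77.0 counts with a posterior SD of 15.7 and 15.8, and Fgf8-206 at 69.4 and 73.7 counts with 16.4 and 16.7. Fgf8-202 had 21.7% and 21.01%, Fgf8-205 had 20.2% and 14.8%, Fgf8-204 had 11.7% and 9.25%, and Fgf8-203 had none.

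The 33-base segment printed above is in Fgf8-201, Fgf8-206 and Fgf8-203, the last without counts. Grouped by segment, the transcripts with it held 46.4% of the Fgf8 TPM in library 1 and 55.0% in library 2 (50.7 ± 6.11). This is 7.20 and 7.32 TPM with the segment against 8.32 and 5.98 TPM without it. Fgf8-206, with 22.8% and 27.7%, carries this segment alone, as the Fgf8b form does, which is known to bind FGF receptors more strongly than Fgf8a. Fgf8-201 carries the exon of 87 bases as well. The exon of 87 bases, in Fgf8-201 and Fgf8-204, was in 35.3% and 36.5% (35.9 ± 0.891), and the extension of 192 bases, in Fgf8-202, in 21.7% and 21.01% (21.4 ± 0.502). Fgf8-205, which carries none of them, took 17.5 ± 3.88%. All 3 segments have a length divisible by 3, so none shifts the reading frame, and the larger SD is that of the shortest segment.

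**Figure D2:**
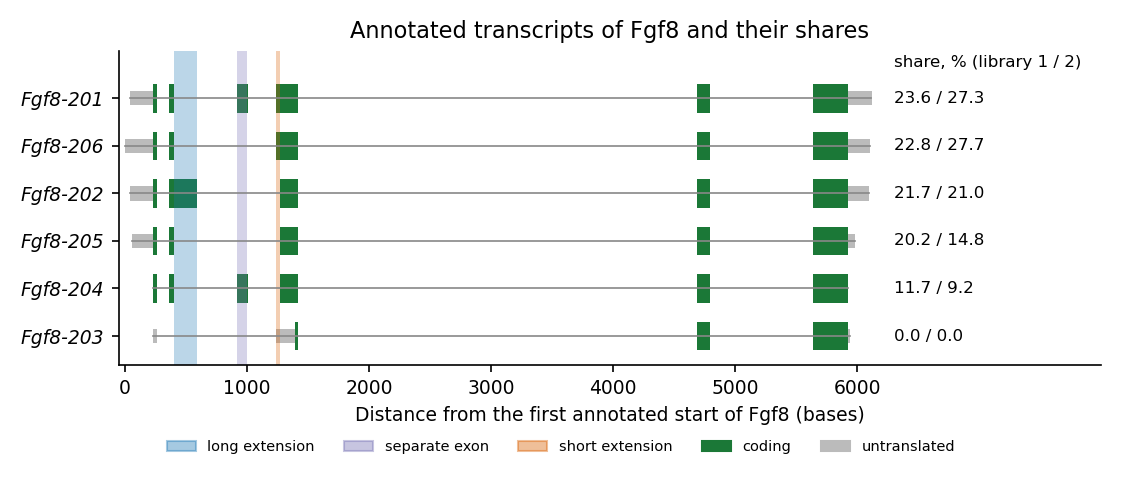
The 6 annotated Fgf8 transcripts drawn to scale in the direction of transcription, with the distance from the first annotated start in bases, coding exons in green and untranslated ones in grey. Shaded columns mark the extension of 192 bases, the exon of 87 bases and the extension of 33 bases, and the numbers give each transcript's share of the Fgf8 TPM in library 1 and library 2. The 3 shaded segments lie in the first part of the gene, and 4 of the transcripts take between 14.8% and 27.7% each.

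Fgf9 was divided between transcripts with different starts. Fgf9-201, which begins at the start given by RefSeq, took 61.2% and 64.3% of the TPM (62.7 ± 2.21). Fgf9-203, which in GENCODE M21 begins at position -2139 relative to it, took 38.8% and 34.0% (36.4 ± 3.44). Fgf9-203 has 3593 nt in M21 against 3210 nt as quantified, so the start of the quantified form may differ. By counts the order was the other way, with 120 and 114 on Fgf9-201 and 159 and 125 on Fgf9-203, which is the longer transcript at 3210 nt against 1593 nt. For Fgf10, all counts fell on Fgf10-201, which begins at the RefSeq start, and none on the transcripts annotated from positions -44908 and -44875.

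The windows around these starts, 250 bases before to 50 after, are shown because transcripts that begin there took most of the Fgf9 TPM and all of the Fgf10 TPM. They are RefSeq sequence of GRCm38.p6, plus strand, at chr13:118714449-118714748 for Fgf10 and chr14:58072436-58072735 for Fgf9. Capitals mark the motif GGGCGG on either strand (here read as CCGCCC), the binding sequence known for Sp1.
Fgf10: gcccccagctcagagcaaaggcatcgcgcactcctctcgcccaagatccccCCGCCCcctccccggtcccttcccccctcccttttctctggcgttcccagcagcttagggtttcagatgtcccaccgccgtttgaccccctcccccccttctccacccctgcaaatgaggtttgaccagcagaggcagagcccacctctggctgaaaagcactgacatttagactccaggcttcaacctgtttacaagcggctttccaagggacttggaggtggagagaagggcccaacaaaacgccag
Fgf9: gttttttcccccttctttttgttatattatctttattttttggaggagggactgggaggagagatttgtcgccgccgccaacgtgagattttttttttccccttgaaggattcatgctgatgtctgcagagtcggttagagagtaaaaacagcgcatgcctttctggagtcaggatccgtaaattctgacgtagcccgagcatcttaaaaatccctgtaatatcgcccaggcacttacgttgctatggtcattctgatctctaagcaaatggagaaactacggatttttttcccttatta

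RefSeq windows were matched for 6 of the 10 ligands (Fgf2, Fgf3, Fgf7, Fgf9, Fgf10 and Fgf18). Besides GGGCGG, the TATA box (letters TATAAA) and the CCAAT box (letters CCAAT) were searched on both strands. None of the motifs contains another. GGGCGG was found for Fgf2, Fgf10 and Fgf18, where 35.7% of 32851 windows hold it. The CCAAT box was found for Fgf7 alone (37.4% of all windows), and the TATA box for none of the 6 (13.6%). All 6 had more CpG dinucleotides than the median window with 7, from 10 in Fgf10 to 47 in Fgf18, which is at percentile 98.6.

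Fgf3, Fgf7, Fgf18 and Fgf2 also had counts on more than 1 transcript, on few reads. Fgf18-201 took 100% in library 1 and 87.4% in library 2, the rest going to Fgf18-202. Fgf7-201 took 81.6% and 64.7%, with 18.4% on Fgf7-202 in library 1 and 35.3% on the non-coding Fgf7-203 in library 2. Fgf3-201 took 100% and 52.2%, but the 47.9% of Fgf3-202 in library 2 came from 3.80 counts on a transcript of 599 nt. Fgf2-201 took 84.5% and 100%, but by posterior mean TPM only 22.7% and 28.8%, so no leading transcript of Fgf2 can be named. The lengths of Fgf7 and Fgf3 that entered the TPM follow these shares, and for Fgf7 the mean length was 2601 nt and 2030 nt.

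**Figure D3:**
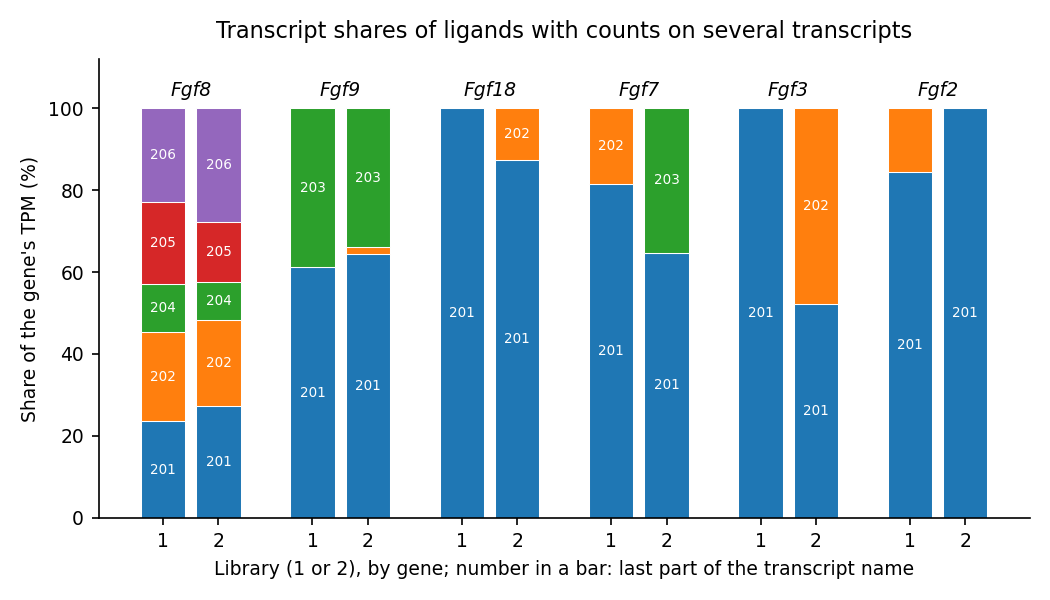
Share of each gene's TPM taken by its transcripts in library 1 and library 2, in percent, for the 6 ligands with counts on more than 1 transcript. Numbers in the bars are the last part of the transcript name, and the unmarked part of the Fgf2 bar is a transcript not in GENCODE M21. Fgf8 is divided among 5 transcripts and Fgf9 mainly between 2. In Fgf7 the second transcript differs between the libraries, and Fgf3 has a second transcript in library 2 alone.

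The 2 pools were compared by the ratio of library 2 over library 1 of expected counts scaled by TMM, with an exact Clopper-Pearson interval (95%) for how the counts divide, which covers counting error only. At the 20 counts required, 9 of the ligands could be measured. Their ratios ran from 0.648 to 1.13, with 5 lower and 4 higher in library 2. For 1 of 9, Fgf15, the interval excluded 1 (1.13, interval 1.01 to 1.26). Over all 16671 genes measured this was so for 40.0%, and for 31.3% of the 10381 genes with 20 to 2000 counts, which is the range of the ligands. With libraries scaled by their total counts in place of TMM, the interval of Fgf15 included 1 and none of the 9 excluded it. Scaled by spike-ins, the interval of Fgf15 included 1 as well (ratio 1.08), and that of Fgf9 excluded it (ratio 0.828). A ratio past 1.5-fold was found for 1 of 9, Fgf20 (0.648, interval 0.274 to 1.47), beside 11.6% of all genes and 18.5% of those in the count range.

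The other 7 ligands differed by less than their counting error. Fgf8 had a ratio of 0.895 (0.754 to 1.06), Fgf9 of 0.865 (0.725 to 1.03) and Fgf17 of 0.893 (0.700 to 1.14). Fgf10 had a ratio of 1.10 (0.987 to 1.23), Fgf18 of 0.796 (0.561 to 1.13), Fgf7 of 1.00 (0.677 to 1.48) and Fgf3 of 1.05 (0.550 to 2.01). All these intervals included 1, and neither the epithelial nor the mesenchymal ligands shared a direction. The median ratio of the 9 was 0.895, beside 1.00 for all genes, and their median absolute log2 ratio was 0.16, beside 0.22 for genes in the same count range.

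**Figure D4:**
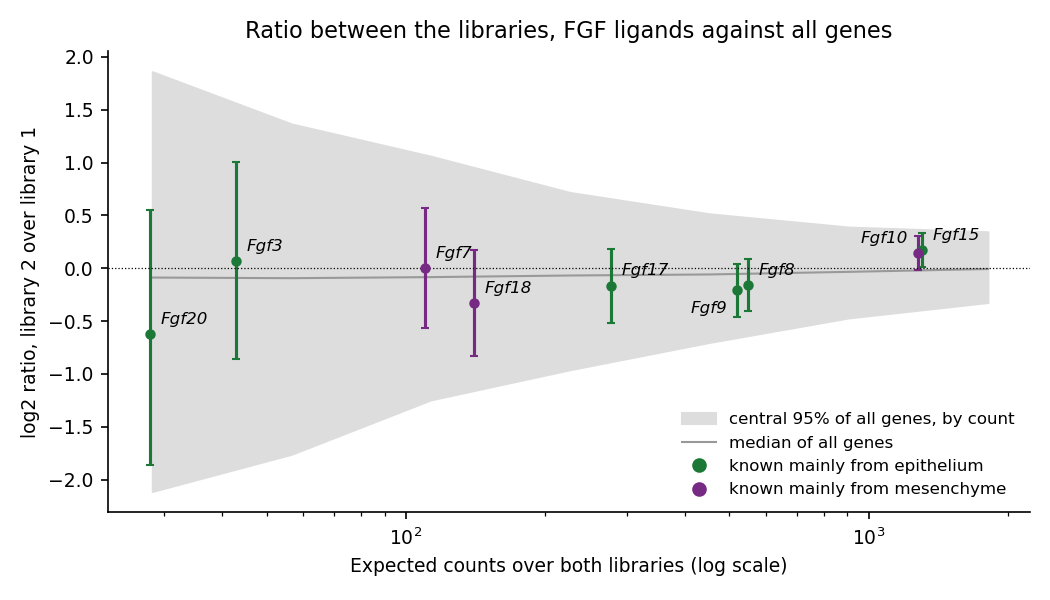
Log2 ratio of library 2 over library 1 against the expected counts over both libraries (log scale) for the 9 ligands with at least 20 counts, with bars for the 95% counting interval. The grey band holds the central 95% of all genes with similar counts, and the line is their median. All 9 ligands lie inside the band, and the bar of Fgf15 alone lies above 0.

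Marker genes of the cell types in the pools are given beside the ligand ratios, where again 40.0% of all genes had an interval that excluded 1. That share was lower, 31.3%, for genes with 20 to 2000 counts. Many markers had more than 2000 counts, so neither share is a background matched to their counts. The 14 epithelial markers summed to 310 TPM in library 1 and 274 TPM in library 2, with 11 lower and 3 higher in library 2. The interval excluded 1 for 7 of the lower ones and for none of the higher ones. The 12 mesenchymal markers summed to 1344 and 1289 TPM, with 5 lower and 7 higher, and the interval excluded 1 for 5 in each direction. The 12 forebrain and eye markers summed to 423 and 292 TPM, with 8 lower and 4 higher. The interval excluded 1 for 6 of the lower and 4 of the higher ones, and the lens gene Cryaa had the lowest ratio of the list (0.111, interval 0.0982 to 0.126). The 8 neuronal markers summed to 593 and 476 TPM and all 8 were lower with intervals that excluded 1. The 8 olfactory and placode markers summed to 154 and 140 TPM with 7 lower, 4 of them with such an interval. The 8 skeletal muscle markers were all higher in library 2, at 111 and 180 TPM in sum and 6 with such an interval. The 8 heart markers stood at 30.7 and 83.7 TPM in sum with 6 higher, 5 of them with such an interval. Of the 2 second pharyngeal arch markers, Hoxa2 was at 15.1 and 18.7 TPM (ratio 1.26, interval 1.12 to 1.43). Hoxb2 was at 6.33 and 4.72 TPM (ratio 0.776, interval 0.629 to 0.955). No marker sum was at 0. The part of these differences in the ratios of Fgf15, Fgf8, Fgf9 and Fgf17 was not tested.

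No source used here gives the strand setting of the libraries, and reads of a ligand and of a gene overlapping it on the other strand cannot be told apart. In GENCODE M21, 11 genes overlap 6 of the ligands, 9 of them on the opposite strand, and 8 of the 11 were in the files. The highest levels among these were those of the neighbours of Fgf20 and Fgf2. Micu3, which overlaps Fgf20 by 874 bases, was at 10.1 ± 0.750 TPM, and Nudt6, which overlaps Fgf2 by 5199 bases, was at 2.80 ± 0.368 TPM. Over Fgf15, the antisense gene Gm26793 was at 0.51 and 0.98 TPM. Fgf8, Fgf17, Fgf18 and Fgf3 had no overlapping gene.

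Fgf3, Fgf4 and Fgf15 are neighbours on chromosome 7. Fgf4 starts 2.93 kb after the end of Fgf3, and Fgf15 starts 52.1 kb after it. Their levels were far apart: Fgf15 stood 31.4 ± 8.36-fold above Fgf3 in TPM, and Fgf4, known from the early embryo and the limb bud ridge, was at 0.03 and 0.05 TPM from 2 and 3 counts, at or under the limit of 3 counts taken here as the detection floor.

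Of the 8 other secreted FGF ligands, none reached 1 TPM in both libraries. The highest was Fgf5, a ligand known from the hair follicle, at 0.79 and 1.20 TPM, followed by Fgf1 at 0.25 and 0.67 TPM and Fgf16 at 0.09 and 0.22 TPM. Fgf1 rested on 20 and 24 counts, with a count ratio of 1.20 (interval 0.636 to 2.29). Fgf16 rested on 3 and 7 counts, in library 1 at the detection floor. The ratio of Fgf5 was 1.54 (interval 1.01 to 2.37). Of the 4 intracellular FGF genes, whose proteins are not secreted ligands and bind sodium channels, Fgf13 alone reached the level, at 25.8 and 20.2 TPM, above every secreted ligand.

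Of the receptor, cofactor and target genes, Fgfr2, Fgfr1, Flrt3, Flrt2, Hs6st2, Dusp6, Spry2 and Etv5 stood above every ligand within each library. All 5 receptor genes reached 1 TPM, led by Fgfr2 at 70.5 and 57.3 TPM, Fgfr1 at 57.7 and 55.5 TPM, and Fgfrl1, a receptor without a kinase domain, at 14.96 and 13.5 TPM. Fgfr2 alone thus had more TPM in each library than the 10 ligands summed (57.9 and 56.4 TPM). The ratio of Fgfr2 was 0.861 (interval 0.822 to 0.902) and that of Fgfr1 1.00 (0.959 to 1.04). Of 12 cofactor genes, which encode heparan sulfate enzymes, klothos and FGF- or receptor-binding proteins, 9 reached 1 TPM. They were led by Flrt3 (83.6 and 88.3 TPM), Flrt2 (41.8 and 41.0 TPM) and Hs6st2 (19.1 and 20.3 TPM).

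Of the feedback and target genes, all 11 found in the files reached 1 TPM. The phosphatase gene Dusp6 was at 84.7 and 89.7 TPM, the inhibitor Spry2 at 30.2 and 38.3 TPM, and the transcription factor Etv5 at 26.5 and 23.0 TPM. Between the pools these genes did not move one way: 6 were lower and 5 higher in library 2, and the interval excluded 1 for 1 of the lower and 4 of the higher ones, a share near the 40.0% of all genes. The ratio of Spry2 was 1.29 (interval 1.20 to 1.40), that of Dusp6 1.08 (1.04 to 1.12) and that of Etv5 0.898 (0.843 to 0.956).

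**Figure D5:**
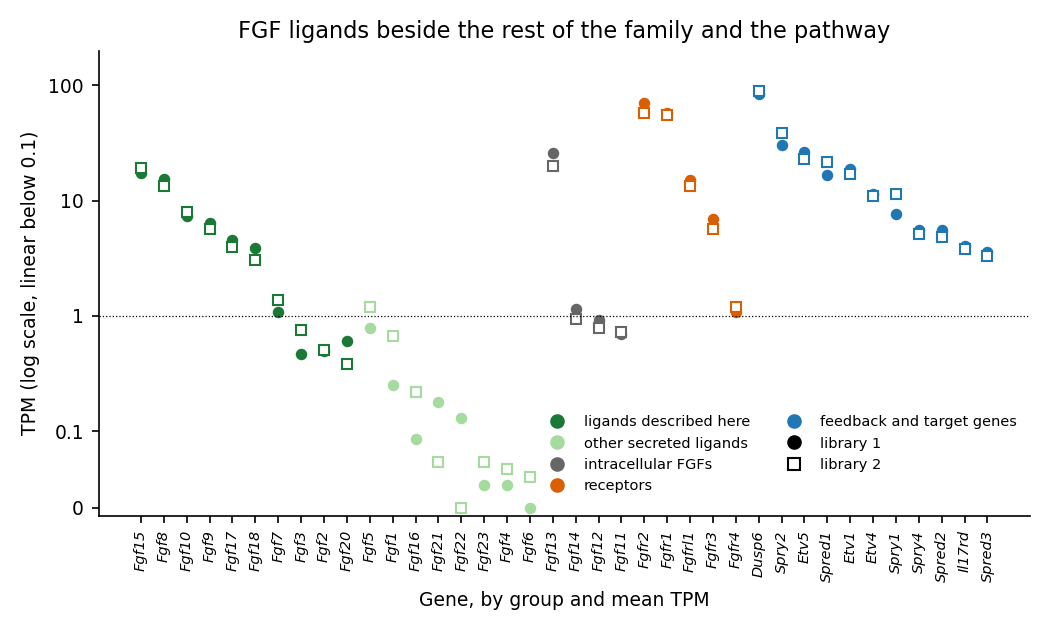
TPM in library 1 (filled circles) and library 2 (open squares) of the 10 ligands, the other secreted ligands, the intracellular FGF genes, the receptors and the feedback and target genes, on a log scale that is linear below 0.1, with a dotted line at 1 TPM. The other secreted ligands lie at or under 1.20 TPM. Of the receptors and the feedback and target genes, Fgfr2, Fgfr1, Dusp6, Spry2 and Etv5 lie above every secreted ligand.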

How the data were processed

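Total RNA of 2 pools of mouse embryonic facial prominence was sequenced. The authors quantified genes and transcripts with the GENCODE M4 models on mm10, per their deposited notes. No source used here gives the aligner's or quantifier's version. The expected counts, per the file headers, are the authors' estimated reads per gene or transcript, without normalization. Per the file headers, TPM was computed by the authors over all entries, spike-ins included, so spike-ins lower the TPM of genes. IsoPct is the percent of a gene's TPM on a transcript, as deposited. Posterior mean counts with their SD, and posterior mean TPM, were also deposited by the authors and served as alternatives.

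The ligands and all gene lists were chosen with earlier results of these data known. Symbols and positions came from GENCODE M21 (GRCm38) by identifier without version. Transcript sequences are from M21 and promoters from RefSeq. Of the listed genes 1, Spry3, was not matched. Of each other list the 3 genes with the highest mean TPM could be named, with any that differed 2-fold at 50 counts or more, and genes overlapping a ligand.

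Library ratios came from expected counts after TMM scaling (edgeR 4.0.16, R 4.3.3) with exact 95% intervals (scipy 1.17.1), for genes with at least 20 counts. Counting intervals of a TPM are exact Poisson intervals of its count. The detection floor was 3 counts. Without molecular identifiers reads are not independent molecules, so intervals and floors cover counting error alone. The spread between pools was edgeR's common dispersion on rounded counts with an intercept alone. The interval calculation was tested on simulated data. Alternatives were other scalings (DESeq2 1.42.0 size factors, total counts, spike-ins), thresholds, posterior means, class membership and leaving out a library.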

Additional observations from a re-analysis of the deposited data

How the results depend on the processing

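The number of ligands at 1 TPM in both libraries, 7, was 8 at 0.5 TPM, 6 at 2 TPM and 8 by posterior mean TPM, the eighth being Fgf2. Fgf2 had only 6 and 7 counts. Part of its posterior mean TPM lay on transcripts with 0 expected counts, such as Fgf2-206 with 13.9% and 13.1%. The summed level of 57.1 TPM was 58.7 by posterior mean TPM and 67.7 over mouse genes without spike-ins. The ligands whose interval excluded 1 numbered 1, Fgf15, with TMM and DESeq2 scaling, with posterior mean counts and without the count minimum. These settings are not separate checks of that interval. The DESeq2 factors were 1 and 1, which leaves the counts unscaled. Posterior mean counts and dropping the count minimum left every ratio of the 9 measured ligands as it was. With total counts on genes the ligands with such an interval numbered 0. With spike-in scaling the number was again 1, but this was Fgf9, lower in library 2 (ratio 0.828). There the interval of Fgf15 included 1 (ratio 1.08). By the ratio of TPM, chosen after seeing the data, 2 ligands were past 1.5-fold in place of 1, Fgf3 being the other, and its transcript length differed between the libraries. The epithelial over mesenchymal ratio of 3.58 became 1.5 with class medians, 11.2 with Fgf10 as epithelial and 3.44 with Fgf2 as mesenchymal. It became 2.09 without Fgf15 and 4.98 with Fgf18 in no class, both chosen after seeing the data. A single transcript took the larger part of the TPM in 9 ligands, and in 8 by posterior mean TPM, where the mean share of Fgf2-201 was 25.7% in place of 92.2%. By posterior mean TPM the leading transcript of Fgf3 differed between the libraries. Fgf3-201 had 71.6% in library 1, and in library 2 it had 47.5% against 52.5% for Fgf3-202. The spread between pools was 9.80% and 10.4% without the filter on low counts. Leaving out 1 library gave 7 detected ligands either way, a level of 56.4 to 57.9 TPM, a class ratio of 3.50 to 3.66 and 9 ligands with such a transcript. The ratio between the libraries needs both, so it has no value without either. No paired analysis was possible because there is 1 group. For the remaining shifts the cause was not tested. Depth limits Fgf2, Fgf3 and Fgf20, with 13, 43 and 28 counts over both libraries, whose order among themselves was not detectable at this depth. The libraries come from separate pools of 1 stage, so the SD measures the spread between these 2 pools.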
